A study of Mus musculus with 6 samples.

Results

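Chemokines, interleukins, colony-stimulating factors, the TNF family and their receptors are the signals by which immune, stromal and vascular cells call to each other. The genes described here were chosen by symbol from a deposited RNA-seq table of 7101 genes: those named Ccl, Cxcl, Ccr, Cxcr, Tnfrsf, Tnfsf, Il or Csf with a number, plus Cx3cl1, Cx3cr1, Lif, Lifr and Osmr, with Csf1r left out. The rule found 73 genes, 27 ligands or antagonists and 46 receptor chains, and no measured value entered it. The libraries were 3 lnc956 knockout and 3 wild type, all labelled as C57BL/6N mouse embryo at stage E12.5, from total RNA extracted with Trizol. lnc956 is a long noncoding RNA whose own level was not analysed here; the genotypes are those of the labels. The sources used here do not give how the knockout was made, whether embryos were pooled, or whether replicates were separate embryos or litters. A p-value therefore reflects the spread among these 6 samples, which may be technical.

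Chemokines are small secreted proteins that guide cells along a gradient through G protein-coupled receptors. Most interleukin and colony-stimulating factor receptors are assembled from a ligand-specific chain and a shared chain, and signal through Janus kinases and STAT factors. TNF family ligands bind trimeric receptors that lead to NF-kB activation or cell death, and some receptors of both kinds are decoys that hold the ligand without a signal. In mouse pregnancy, uterine natural killer cells, macrophages, decidual stroma and trophoblast make and receive many of these factors, and Lif and Il11ra1 are known for their need in implantation and decidualization. In the embryo proper, Cxcl12 and its receptor Cxcr4 guide migrating progenitors of blood, nerve and germ cells.

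The values were taken as FPKM, fragments scaled to transcript length and to the mapped fragments of the library, and the sources used here give no read number per library. The table seems to have been cut to genes that differ: 3643 had a higher and 3458 a lower mean in knockout, and the log2 ratio was smaller than 0.5 for 10 of them. Counts over the members are therefore read against all genes of the table, and members outside it were not analysed here. The libraries labelled knockout embryo carried abundant transcripts of trophoblast, decidua and uterine natural killer cells, and few of neurons. Summed FPKM of 16 trophoblast markers was 16286 to 37872 in knockout and 8.58 to 12.6 in wild-type libraries, and that of 16 decidual stroma markers was 10196 to 12360.4 in knockout and 100.1 to 123 in wild-type libraries. The 10 uterine natural killer cell markers, which include the member Il2rb, summed to 7593 to 18962 in knockout and 4.05 to 6.5 in wild-type libraries. The 15 macrophage and monocyte markers summed to 633 to 1035 in knockout and 70.4 to 93.6 in wild-type libraries. Of 7 neutrophil markers the sum was 872 to 1264 in knockout and 34.6 to 59.8 in wild-type libraries; S100a8 alone was at 776 to 1073 in knockout and 14.1 to 25.7 in wild type, and Mpo, an enzyme of neutrophil granules, was lower in knockout, at 0.02 to 0.0647 against 2.17 to 5.67 in wild type. Of 11 endothelial markers it was 622 to 738 in knockout and 126 to 155 in wild type, and of 10 epithelial markers 2083 to 5026 in knockout and 64.8 to 77.2 in wild type. Of 11 neuron markers it was 7.88 to 27.6 in knockout and 884 to 925 in wild-type libraries, and of 13 erythroid markers 2206 to 4837 in knockout and 28023 to 42586 in wild type. The 1 lymphocyte marker in the table, Lck, was at 0.565 to 1.11 in knockout and 2.41 to 3.26 in wild type. Of the markers tested, 13 of 13 trophoblast, 16 of 16 decidual stroma, 10 of 10 natural killer cell, 13 of 15 macrophage, 4 of 6 neutrophil, 8 of 11 endothelial and 9 of 10 epithelial ones were higher in knockout past the threshold used below. All 11 neuron and all 13 erythroid markers, 1 neutrophil marker (Mpo) and 1 endothelial marker (Sox18) were lower, as was Lck. Over all genes tested 47.2% were higher and 49.2% lower. Some markers, such as Prl2c2, Erv3 and Gzmd, were under 1 FPKM in every wild-type library. They could pass the filter described below only through the knockout libraries, so their direction was set in advance. How many markers passed in this way was not counted. No listed marker in the table was at 0 in every library of a genotype. The table held 16 of 20 listed trophoblast, 16 of 16 decidual stroma, 10 of 18 natural killer cell and 15 of 22 macrophage markers. It held 7 of 13 neutrophil, 11 of 16 endothelial, 10 of 12 epithelial, 11 of 16 neuron, 13 of 15 erythroid and 1 of 16 lymphocyte markers. Listed markers outside the table were not analysed here. The 2 markers with the highest mean of each list were Prl3b1 and Prl2c2 (trophoblast), Prl8a2 and Erv3 (decidual stroma), Gzmg and Gzmd (uterine natural killer cells), Cd68 and Csf1r (macrophages), S100a8 and S100a9 (neutrophils), Cdh5 and Pecam1 (endothelium), Krt18 and Krt8 (epithelium), Tubb3 and Gap43 (neurons) and Hbb-y and Hba-a1 (erythroid cells). The part of this difference in tissue content in the results below was not tested, and in bulk RNA fewer cells of a type and less RNA per cell cannot be told apart.

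Promoter bases are shown for 6 members that the results turn on: 4 that were high in knockout (Tnfrsf9, Il1r2, Cxcl14 and Cxcl1) and 2 that were low (Cxcl12 and Cxcr4). Each is the 250 bases before a transcription start in RefSeq on GRCm38.p6, written 5′ to 3′ on the gene's strand. No window held a whole exon of GENCODE M21, and partial overlap was not searched. The Cxcl1 window reaches past the start of its gene in that annotation (90891241). Those of Tnfrsf9 and Il1r2 lie inside their annotated gene spans. Capitals mark matches to the 4 motifs described after the sequences.
Tnfrsf9, chr4:150927749-150927998, plus strand, the second of its 2 windows: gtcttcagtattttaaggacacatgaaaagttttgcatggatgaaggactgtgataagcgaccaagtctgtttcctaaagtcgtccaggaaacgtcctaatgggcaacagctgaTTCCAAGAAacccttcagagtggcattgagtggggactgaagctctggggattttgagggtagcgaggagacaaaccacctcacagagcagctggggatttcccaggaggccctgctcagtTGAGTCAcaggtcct
Il1r2, chr1:40085843-40086092, plus strand: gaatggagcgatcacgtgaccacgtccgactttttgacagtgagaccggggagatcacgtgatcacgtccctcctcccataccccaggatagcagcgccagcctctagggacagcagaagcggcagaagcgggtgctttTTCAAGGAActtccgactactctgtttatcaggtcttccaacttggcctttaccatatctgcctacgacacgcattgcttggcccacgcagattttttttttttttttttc
Cxcl14, chr13:56296552-56296801, minus strand: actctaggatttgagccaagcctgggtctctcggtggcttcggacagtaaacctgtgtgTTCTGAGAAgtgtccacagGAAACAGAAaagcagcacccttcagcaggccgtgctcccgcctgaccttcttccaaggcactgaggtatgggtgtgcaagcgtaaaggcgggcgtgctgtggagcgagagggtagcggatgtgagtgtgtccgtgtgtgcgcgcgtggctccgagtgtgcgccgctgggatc
Cxcl1, chr5:90890995-90891244, plus strand: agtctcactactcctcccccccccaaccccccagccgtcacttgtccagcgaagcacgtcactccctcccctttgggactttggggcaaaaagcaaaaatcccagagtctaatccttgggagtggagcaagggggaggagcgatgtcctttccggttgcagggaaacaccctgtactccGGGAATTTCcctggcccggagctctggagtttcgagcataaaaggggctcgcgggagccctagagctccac
Cxcl12, chr6:117168285-117168534, plus strand: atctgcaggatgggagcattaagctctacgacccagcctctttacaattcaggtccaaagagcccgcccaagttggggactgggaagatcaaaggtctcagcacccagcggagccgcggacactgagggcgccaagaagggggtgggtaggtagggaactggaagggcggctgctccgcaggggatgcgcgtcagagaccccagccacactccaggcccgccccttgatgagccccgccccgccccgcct
Cxcr4, chr1:128592300-128592549, minus strand: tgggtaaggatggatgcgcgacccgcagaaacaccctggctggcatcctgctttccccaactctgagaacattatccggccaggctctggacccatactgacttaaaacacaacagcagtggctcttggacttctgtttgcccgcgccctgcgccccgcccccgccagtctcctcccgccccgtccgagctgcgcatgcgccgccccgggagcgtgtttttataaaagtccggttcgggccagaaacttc

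The motifs were GGGANTTTC for NF-kB, TTCNNNGAA for STAT factors, TGANTCA for AP-1 and TTCNNTTTC for the core of the interferon-stimulated response element, searched on both strands. The NF-kB letters leave out the last base of the common site and fix other bases that vary in it. Variant sites were therefore not marked, such as ggggatttcc in the Tnfrsf9 window printed here. The window of Tnfrsf9 printed here held a STAT match starting 136 bases and an AP-1 match starting 15 bases before the start site, and its first window (chr4:150919905-150920154) held no match. The windows of Il1r2 and Cxcl14 held a STAT match at 111 and 191 bases, and that of Cxcl14 an interferon element match on the other strand at 172 bases. Cxcl1 held an NF-kB match at 71 bases. None of the 4 motifs was in the windows of Cxcl12 and Cxcr4, which says only that these letters are not there. Windows were found for 54 of the 73 members, 65 in all. The NF-kB motif was in 3 of these 65 (Csf1, Cxcl1 and Cxcr2; 4.62%) and in 0.941% of all 32851 windows. The STAT motif was in 7 (10.8%, against 7.02% of all windows), the AP-1 motif in 9 (13.8%, against 6.75%) and the interferon motif in 7 (10.8%, against 7.13%). A match is a description of the sequence and shows no binding, and the motifs and windows were chosen after the values were known.

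Cytokine and receptor transcripts were mostly more abundant in the knockout libraries. By mean FPKM, 64 of the 73 members were higher in knockout and 9 were lower. Their FPKM summed to 2529, 3122 and 2443 in knockout and 458, 378 and 352 in wild-type libraries, which was 0.868%, 1.03% and 0.945% of the table's sum in knockout and 0.23%, 0.219% and 0.207% in wild-type libraries. Among ligands and antagonists 23 were higher and 4 lower, and among receptor chains 41 were higher and 5 lower. Groups did not overlap for 59 members that were higher and 9 that were lower in knockout, beside 95.6% of all genes of the table without overlap (47.1% higher and 48.5% lower), and 5 members overlapped (Ccl28, Cxcl5, Ccr7, Il21r and Csf2rb2).

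Values were tested with limma as log2(FPKM + 1), a scale on which the change of low genes is understated, where 3 or more of the 6 libraries reached 1 FPKM. Of the 73 members 63 passed this filter, 28 of them through the knockout libraries alone and 4 through the wild-type libraries alone, which had to differ. Among the 28 were Cxcl1, Cxcl10, Ccl3, Ccl6, Ccl7, Cxcr2, Il1r2, Il1rn, Il2rb, Il10ra, Il17rb, Il23a, Osmr, Il6ra, Tnfrsf9, Tnfrsf11b, Tnfrsf23 and Tnfrsf1b. Ccl9, Ccl12, Cxcl16, Ccr1, Ccr2, Il1a, Csf3r, Tnfsf10 and Tnfrsf26 were also among them. The 4 were Il17b, Il17rd, Tnfrsf19 and Cx3cr1. For all of these the filter set the lack of overlap in advance, and their p-values below are descriptive. Past a Benjamini-Hochberg adjusted p of 0.05 over all 6487 genes tested, 54 of the 63 were higher in knockout and 8 were lower. The remaining 1, Csf2rb, did not pass. Of all genes tested 96.4% passed. That nearly all members passed is thus near the share of the table. By direction the table was even, with 47.2% of the genes tested higher and 49.2% lower in knockout. The median log2 change of the tested members was 1.74, against 0.38 over all genes tested; with a pseudocount of 5 it was 0.94, against 0.18. Of the 10 members left out by the filter, Ccr7, Il15, Il15ra, Lif and Tnfrsf11a were higher and Il33 was lower past the threshold when all genes were fitted, and Ccl28, Csf2rb2, Cxcl5 and Il21r did not pass.

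**Figure D1:**
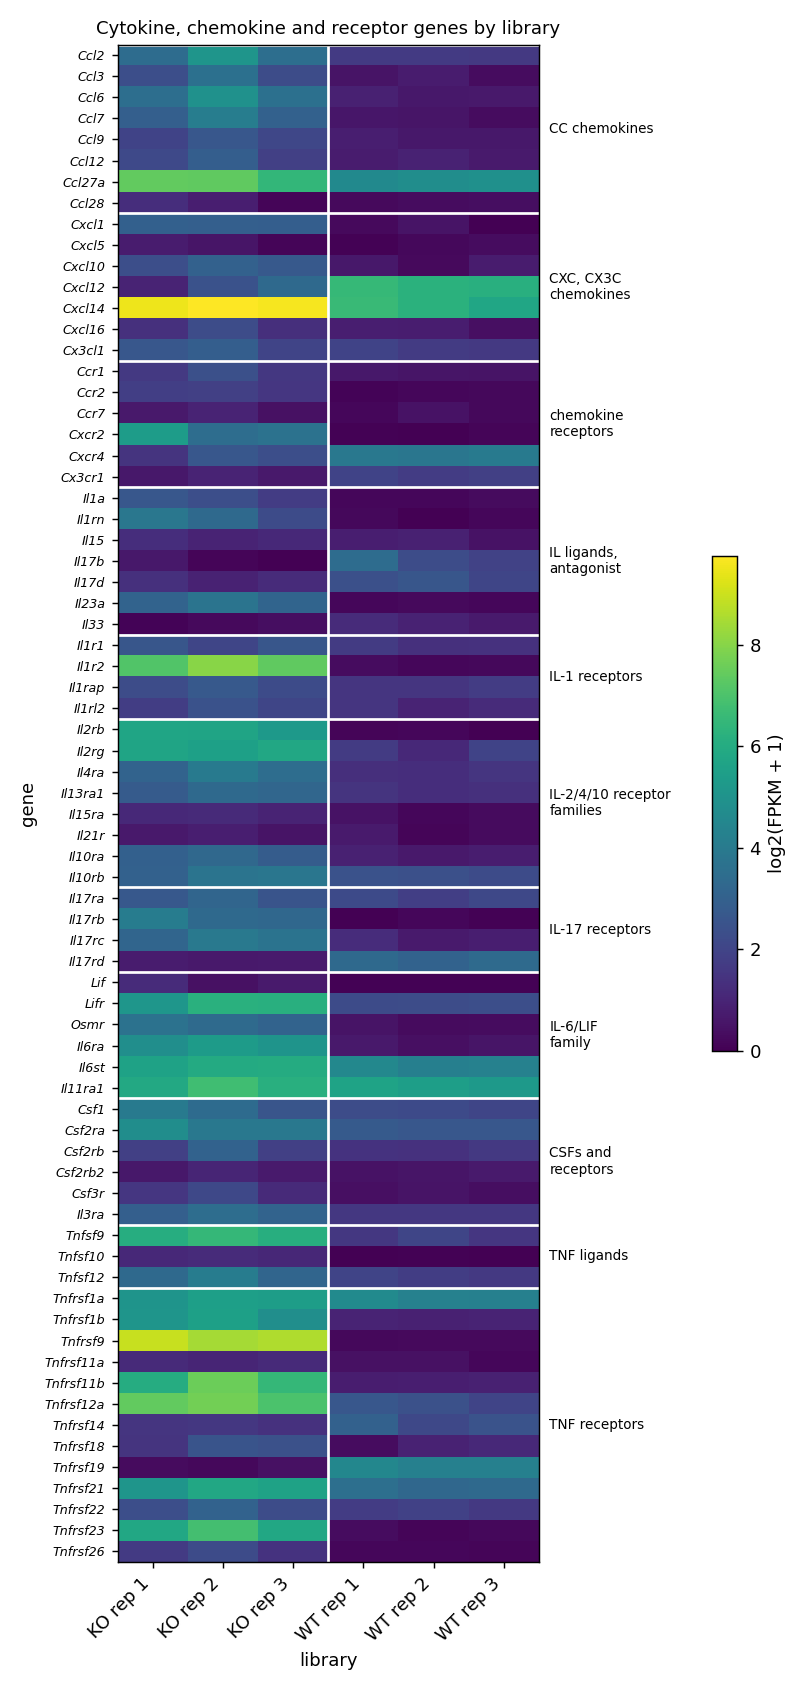
FPKM of 72 of the genes (rows, by role) in the 3 knockout and the 3 wild-type libraries (columns), as log2(FPKM + 1) in colour. Most rows are brighter in the 3 knockout columns, and Cxcl12, Cxcr4, Il17rd and Tnfrsf19 are among the 9 that are brighter in the 3 wild-type columns.

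**Figure D2:**
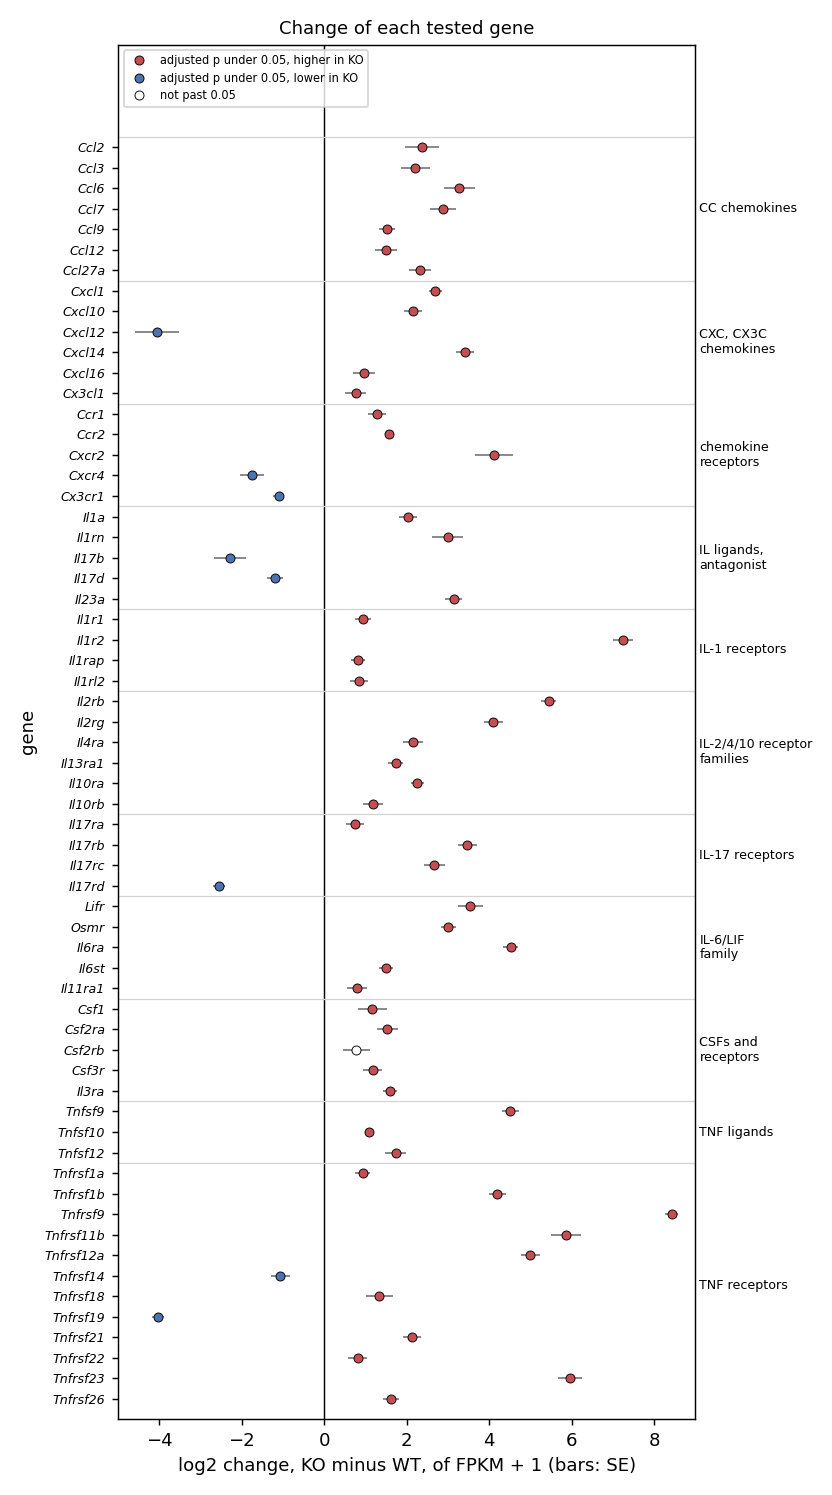
Log2 change of FPKM + 1, knockout minus wild type, of 62 of the tested genes by role, with bars for the SE from limma. Of these, 53 lie right of 0 past the threshold, 8 lie left of it past the threshold, and Csf2rb is the open point; Tnfrsf9 lies farthest right at 8.43, and Cxcl12 at −4.05 and Tnfrsf19 at −4.03 lie farthest left.

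In what follows, 3 values of a genotype are those of replicates 1, 2 and 3, in FPKM, and changes are log2 differences of FPKM + 1, knockout minus wild type. The most abundant member in knockout was Cxcl14, a chemokine of epithelia and stroma. Cxcl14 stood at 716, 861 and 776 FPKM in knockout libraries, against 96.4, 73.7 and 53.5 FPKM in wild-type libraries. The knockout values lay close together and all above the wild-type ones (change 3.41, SE 0.22, limma adjusted p = 5.32e-06). Cxcl12, the chemokine that retains and guides progenitor cells and the most abundant member in wild type, went the other way. Cxcl12 stood at 0.96, 4.48 and 8.98 FPKM in knockout libraries, against 91.6, 73.8 and 69.3 FPKM in wild-type libraries. Its highest knockout value was 9.35 times the lowest, yet all were below wild type (change −4.05, SE 0.53, limma adjusted p = 0.000193; −3.41 without knockout replicate 1). Cxcl1, an attractant of neutrophils through Cxcr2, was at 7.02, 6.81 and 6.48 FPKM in knockout libraries, against 0.202, 0.434 and 0 FPKM in wild-type libraries, and it was listed at 0 in a wild-type library. The knockout values of Cxcl1 were nearly equal to each other, with a change of 2.7, SE 0.16, limma adjusted p = 3.19e-06. Cxcl10, an interferon-inducible attractant of lymphocytes, was at 4.08, 7.22 and 5.58 FPKM in knockout libraries, against 0.551, 0.178 and 0.677 FPKM in wild-type libraries (change 2.16, SE 0.22, limma adjusted p = 4.58e-05). As Cxcl10 passed the filter through the knockout libraries alone, its lack of overlap was set in advance. Its gene overlaps Art3, and the sources used here do not say whether reads were counted by strand. Of the remaining 3 of this class, the membrane-bound Cx3cl1 and Cxcl16 rose by less (changes 0.76 and 0.97), and Cxcl5, another Cxcr2 ligand, was at most 0.67 FPKM in any library and was not tested. Cxcl16 was at 1.46 to 3.82 FPKM in knockout and 0.319 to 0.782 in wild-type libraries. Cx3cl1 was at 3.01 to 6.59 FPKM in knockout and 2.09 to 2.87 in wild-type libraries. Without wild-type replicate 2 or 3 Cx3cl1 did not pass (changes 0.73 and 0.70, limma adjusted p = 0.0609 and 0.0661; 0.0193 with all libraries).

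All 7 tested CC chemokines rose, and Ccl28, a chemokine of mucosal epithelia, was not tested, at 0.0966 to 1.41 in knockout and 0.186 to 0.276 in wild-type libraries. Ccl27a, in skin an attractant of T cells, was the most abundant. Ccl27a stood at 171, 163 and 87.9 FPKM in knockout libraries, against 23.5, 26.2 and 28.9 FPKM in wild-type libraries. Replicate 3 was the lowest of the knockout libraries and still above every wild-type library (change 2.32, SE 0.26, limma adjusted p = 8.44e-05). Ccl27a has near-identical copies in the mouse genome and its gene meets Il11ra1 on chromosome 4, so the division of reads there is uncertain. Ccl2 and Ccl7, attractants of monocytes through Ccr2, lie side by side with Ccl12 on chromosome 11 (82035571 to 82103400 in GENCODE M21 on GRCm38). Ccl2 was at 9.91, 32.6 and 10.6 FPKM in knockout libraries, against 2.12, 2.19 and 2.09 FPKM in wild-type libraries. Ccl7 was at 6.78, 16.4 and 7.26 FPKM in knockout libraries, against 0.517, 0.463 and 0.244 FPKM in wild-type libraries. Knockout replicate 2 was the highest library for both, with changes of 2.37, SE 0.42, limma adjusted p = 0.000925 for Ccl2 and 2.89, SE 0.31, limma adjusted p = 6.44e-05 for Ccl7. Ccl3, Ccl6 and Ccl9, ligands of Ccr1, form a second group on the same chromosome (83572919 to 83649355). Ccl6 was at 10.4, 29.3 and 11.2 FPKM in knockout libraries, against 0.866, 0.55 and 0.595 FPKM in wild-type libraries. Ccl3 was at 4.14, 11 and 3.82 FPKM in knockout libraries, against 0.438, 0.659 and 0.249 FPKM in wild-type libraries. Both were again highest in knockout replicate 2 (changes 3.28, SE 0.37, and 2.21, SE 0.35). Ccl9 and Ccl12 were lower in level, at 2.55 to 6.53 in knockout and 0.54 to 0.909 in wild-type libraries, with changes of 1.53 and 1.5.

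Of the chemokine receptors described here 3 rose and 2 fell, and Ccr7, a receptor for homing to lymph nodes, was not tested, at 0.361 to 0.983 in knockout and 0.139 to 0.388 in wild-type libraries. Cxcr2, the receptor of Cxcl1 and Cxcl5 on neutrophils, was at 40.8, 10.3 and 11.7 FPKM in knockout libraries, against 0.0332, 0.0179 and 0.094 FPKM in wild-type libraries. Knockout replicate 1 stood above the other knockout libraries (change 4.12, SE 0.47, limma adjusted p = 8.65e-05, and a change of 3.52 without knockout replicate 1). That all 3 were above wild type was set in advance by the filter. The 7 neutrophil markers summed to 872, 1264 and 1035 FPKM in the same knockout libraries, most of it from S100a8 at 776, 1073 and 978 FPKM. Of the 6 tested, 4 were higher in knockout, Mpo was lower and Mmp9 did not pass, and the part of neutrophils in the level of Cxcr2 was not tested. Ccr1 and Ccr2, inflammatory receptors of monocytes and macrophages, lie near each other on chromosome 9 (123962124 to 124113557). They were low in every library, at 1.89 to 4.23 FPKM in knockout and 0.0555 to 0.539 in wild-type libraries, and rose by 1.29 and 1.58. Cxcr4, the receptor of Cxcl12, was at 1.77, 5.19 and 4.07 FPKM in knockout libraries, against 13.8, 13.1 and 14.9 FPKM in wild-type libraries. It fell with its ligand (change −1.75, SE 0.29, limma adjusted p = 0.000724), the lowest knockout value of each being in replicate 1. Cx3cr1, the receptor of Cx3cl1 on microglia and monocytes, was at 0.537 to 0.956 in knockout and 2.35 to 2.86 in wild-type libraries (change −1.1, SE 0.13, limma adjusted p = 0.000119). Thus the ligand Cx3cl1 rose while its receptor fell. The rise of Cx3cl1 did not pass without wild-type replicate 2 or 3. The fall of Cx3cr1, which passed the filter through the wild-type libraries alone, was set in advance. The annotated span of Cx3cr1 overlaps 5 other coding genes.

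**Figure D3:**
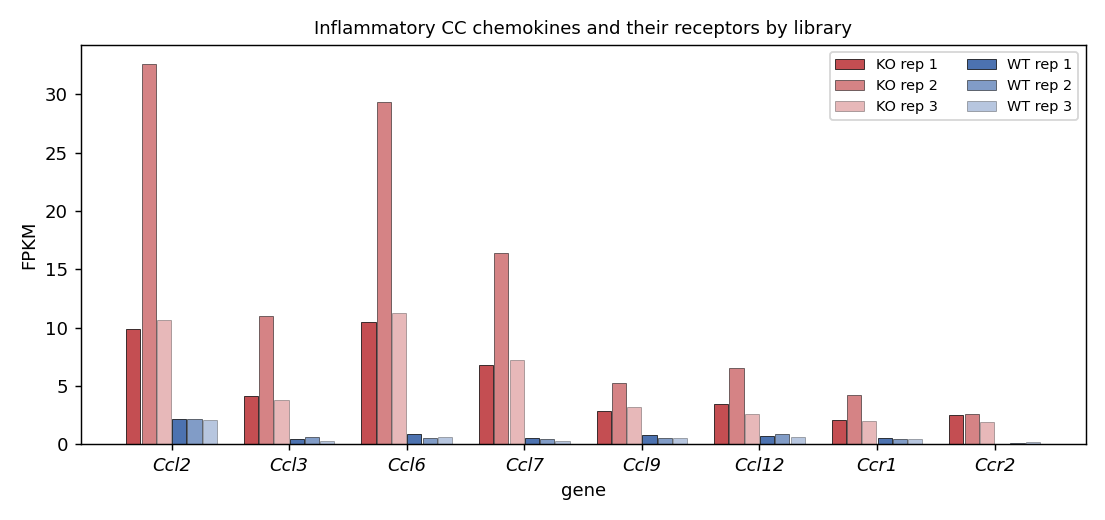
FPKM of 6 CC chemokines and 2 of their receptors (x axis) in each library, knockout bars left of wild-type bars. Knockout replicate 2 is the tallest bar for all 8 genes; the 6 chemokines sum to 101 FPKM there, against 37.6 and 38.7 in knockout replicates 1 and 3 and 4.36 to 5.39 in wild-type libraries.

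The knockout libraries differed among themselves in this inflammatory group. The sum of Ccl2, Ccl3, Ccl6, Ccl7, Ccl9 and Ccl12 was 37.6, 101 and 38.7 in knockout and 5.39, 5.34 and 4.36 in wild-type libraries, and each of the 6 was highest in knockout replicate 2. The macrophage and monocyte markers summed to 688, 1035 and 633 FPKM in knockout libraries, and 14 of the 15 were highest in replicate 2, the exception being Csf1r at 215, 112 and 105 FPKM. Of the 10 uterine natural killer cell markers 8 were highest there as well, and so were 12 of the 16 decidual stroma markers, whose sums were 10196, 12360.4 and 10479. Of 16 trophoblast markers 9 were highest in replicate 1, 1 in replicate 2 and 6 in replicate 3. Of the 64 members with a higher mean in knockout, 44 (68.8%) were highest in replicate 2, 16 (25%) in replicate 1 and 4 (6.25%) in replicate 3. Over all 3643 genes with a higher mean in knockout these shares were 50.4%, 29.5% and 20.1%. Among members, Cxcr2, Csf1, Csf2ra, Il1rn and Il17rb were examples with the highest value in replicate 1, chosen after their values were seen.

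Of the IL-1 family, all 4 receptor chains rose, and the decoy far more than the signalling chains. Il1r2, the decoy receptor that binds IL-1 without a signal, was at 136, 257 and 165 FPKM in knockout libraries, against 0.256, 0.138 and 0.161 FPKM in wild-type libraries. The lowest knockout value was far above every wild-type value (change 7.25, SE 0.24, limma adjusted p = 5.66e-07). As Il1r2 passed the filter through the knockout libraries alone, its lack of overlap was set in advance. Il1r1, the signalling receptor, was at 3.12 to 5.07 in knockout and 1.54 to 2.21 in wild-type libraries. Its accessory chain Il1rap was at 3.73 to 5.52 in knockout and 1.82 to 2.36 in wild type, and Il1rl2, a chain of the IL-36 receptor, at 2.39 to 4.42 in knockout and 0.971 to 1.86 in wild type. Their changes were 0.94, 0.82 and 0.85. Il1r2, Il1r1 and Il1rl2 lie next to one another on chromosome 1 (40074079 to 40367562). The agonist Il1a was at 2.33 to 5.35 in knockout and 0.116 to 0.204 in wild-type libraries (change 2.04, SE 0.22, limma adjusted p = 7.21e-05). Il1rn, the secreted antagonist of the IL-1 receptor, was at 13.5, 8.97 and 3.71 FPKM in knockout libraries, against 0.151, 0.0231 and 0.138 FPKM in wild-type libraries, with a change of 3.0, SE 0.38, limma adjusted p = 0.000145. Its highest knockout value was 3.63 times its lowest. The filter set the lack of overlap of Il1a and Il1rn in advance as well. Il33, an alarmin of the same family, was under 0.3 in every knockout library and at 0.614 to 1.32 in wild-type libraries, and was left out by the filter.

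Il2rb and Il2rg, the chains through which IL-15 and IL-2 signal in natural killer and T cells, were among the receptors that rose most. Il2rb was at 51.6, 51.3 and 36.3 FPKM in knockout libraries, against 0.0949, 0.122 and 0.0179 FPKM in wild-type libraries. The change was 5.44, SE 0.18, limma adjusted p = 5.68e-07, and this gene is also a marker on the natural killer cell list. Il2rg, shared by receptors of several interleukins, was at 51, 45.9 and 56.4 FPKM in knockout libraries, against 2.24, 1.21 and 2.9 FPKM in wild-type libraries, with a change of 4.1, SE 0.23, limma adjusted p = 2.71e-06. The ligand Il15 was low, at 0.978 to 1.44 FPKM in knockout and 0.387 to 0.878 in wild type, and was not tested. Neither was its presenting chain Il15ra, at 0.962 to 1.26 FPKM in knockout and 0.134 to 0.386 in wild type. The receptor chains of IL-4 and IL-13 rose as well. Il4ra was at 7.59, 15.4 and 10.1 FPKM in knockout libraries, against 1.48, 1.45 and 1.85 FPKM in wild-type libraries (change 2.16, SE 0.25). Il13ra1 was at 5.9, 9.04 and 8.25 FPKM in knockout libraries, against 1.78, 1.45 and 1.54 FPKM in wild-type libraries (change 1.74, SE 0.18). Of the IL-10 receptor, the ligand-binding Il10ra was at 6.95, 8.85 and 6.14 FPKM in knockout libraries, against 0.858, 0.599 and 0.701 FPKM in wild-type libraries. Il10rb was at 7.06, 12.6 and 13.4 FPKM in knockout libraries, against 4.45, 4.25 and 3.63 FPKM in wild-type libraries. Il10rb is shared with other cytokine receptors, and both chains rose, by 2.26 and 1.19. Neither chain overlapped between the genotypes, which for Il10ra the filter set in advance. Il21r, a partner of Il2rg, overlapped between the genotypes, at 0.428 to 0.778 in knockout and 0.0847 to 0.63 in wild-type libraries.

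The IL-17 family was split. Il17rb, a receptor chain for IL-17B and IL-25, was at 16, 9.14 and 8.47 FPKM in knockout libraries, against 0, 0.138 and 0.0485 FPKM in wild-type libraries, so that it was listed at 0 in a wild-type library (change 3.47, SE 0.23, limma adjusted p = 6.29e-06). Il17rc was at 7.97, 14.4 and 12.1 FPKM in knockout libraries, against 1.38, 0.642 and 0.781 FPKM in wild-type libraries. Il17ra was at 5.41, 7.95 and 4.73 FPKM in knockout libraries, against 3.62, 2.49 and 3.29 FPKM in wild-type libraries. Il17rc and Il17ra form the receptor of IL-17A. Il17rc rose by 2.68 and Il17ra by 0.75; without wild-type replicate 2 Il17ra did not pass (change 0.63, limma adjusted p = 0.051, against 0.0107 with all libraries). In contrast Il17rd, which in mouse and other vertebrates restrains FGF signalling, was at 0.665, 0.599 and 0.648 FPKM in knockout libraries, against 9.13, 7.37 and 9.39 FPKM in wild-type libraries. Its knockout values were nearly equal and far below wild type (change −2.55, SE 0.14, limma adjusted p = 2.57e-06). The ligand Il17b was at 0.562, 0.103 and 0 FPKM in knockout libraries, against 9.9, 3.82 and 2.75 FPKM in wild-type libraries, and was listed at 0 in a knockout library. Wild-type replicate 1 was the highest (change −2.28, SE 0.39, limma adjusted p = 0.000816). The lack of overlap of Il17b was set in advance, since it passed the filter through the wild-type libraries alone. Il17d, another ligand, was at 0.895 to 1.53 in knockout and 3.09 to 5.12 in wild-type libraries (change −1.19). Il17b and its receptor Il17rb thus moved in opposite directions. The gene of Il17rb overlaps Actr8. Il23a, the specific subunit of IL-23, was at 7.55, 12.6 and 7.78 FPKM in knockout libraries, against 0.126, 0.181 and 0.119 FPKM in wild-type libraries (change 3.14, SE 0.20, limma adjusted p = 4.75e-06).

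Receptors of the IL-6 and LIF family rose together. Lifr, which with Il6st binds LIF, was at 33.5, 72.8 and 69.9 FPKM in knockout libraries, against 3.63, 3.75 and 4.12 FPKM in wild-type libraries. Replicate 1 was the lowest of the knockout libraries (change 3.55, SE 0.29, limma adjusted p = 1.71e-05). Il6st, the signal-transducing chain of the whole family, was at 48.7, 61.4 and 62.6 FPKM in knockout libraries, against 22.7, 17.6 and 18.6 FPKM in wild-type libraries, a smaller change of 1.5, SE 0.16, limma adjusted p = 6.77e-05. Il6ra, the specific receptor of IL-6, was at 27.3, 39.8 and 32.1 FPKM in knockout libraries, against 0.6, 0.322 and 0.481 FPKM in wild-type libraries, with a change of 4.52, SE 0.18, limma adjusted p = 8.94e-07. Osmr, the oncostatin M receptor chain next to Lifr on chromosome 15, was at 11.7, 9.32 and 7.7 FPKM in knockout libraries, against 0.444, 0.206 and 0.248 FPKM in wild-type libraries (change 3.01, SE 0.18, limma adjusted p = 3.29e-06). The ligand Lif was low, at 0.349 to 1.27 in knockout and 0.0341 to 0.0529 in wild-type libraries, and was not tested. Il11ra1, the IL-11 receptor, was the most abundant of the family in wild type. Il11ra1 stood at 58.3, 108 and 69.3 FPKM in knockout libraries, against 49.9, 43 and 37 FPKM in wild-type libraries. The gap between the genotypes was small, with a change of 0.81, SE 0.24, limma adjusted p = 0.014, and it did not pass with quantile normalization (0.22, limma adjusted p = 0.323) or without wild-type replicate 3 (0.70, limma adjusted p = 0.0531). Near-identical copies of Il11ra1 exist and its annotated span overlaps 6 coding genes, so its reads may be shared.

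Of the colony-stimulating factors and their receptors, 4 rose and 1 did not pass. Csf1, the growth factor of macrophages, was at 15.3, 9.61 and 4.93 FPKM in knockout libraries, against 3.76, 3.54 and 3.16 FPKM in wild-type libraries. Knockout replicate 1 was highest and replicate 3 close to wild type (change 1.17, SE 0.35, limma adjusted p = 0.0124). Csf2ra, the GM-CSF receptor chain, was at 26.4, 14.1 and 14.1 FPKM in knockout libraries, against 5.7, 5.23 and 5.19 FPKM in wild-type libraries, with a change of 1.53, SE 0.25, limma adjusted p = 0.000626. Il3ra, the IL-3 receptor chain, was at 6.8, 10.1 and 7.67 FPKM in knockout libraries, against 1.96, 1.97 and 2 FPKM in wild-type libraries (change 1.61, SE 0.17). Csf3r, the receptor of the granulocyte factor, was at 1.22 to 3.33 in knockout and 0.296 to 0.432 in wild-type libraries (change 1.18). Csf2rb, the chain shared by the receptors of GM-CSF, IL-3 and IL-5, was at 2.64, 7.35 and 2.56 FPKM in knockout libraries, against 1.66, 1.59 and 2.1 FPKM in wild-type libraries. Its groups did not overlap, yet the change of 0.78 had a limma adjusted p of 0.052, with replicate 2 far above the other knockout libraries. Its call depended on the setting. It passed without knockout replicate 1, 2 or 3 (changes 0.97, 0.37 and 0.99; limma adjusted p = 0.0315, 0.0319 and 0.0314), and did not pass without wild-type replicate 1, 2 or 3 (limma adjusted p = 0.13, 0.123 and 0.0758). It also passed with a pseudocount of 0.1, trimmed-mean rescaling and quantile normalization (limma adjusted p = 0.0481, 0.0217 and 0.00384). Csf2rb2 is a close copy beside it on chromosome 15 (78282507 to 78353847), was at or under 1.01 FPKM in every library and was not tested.

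The TNF family held the largest increase. Tnfrsf9, a costimulatory receptor of activated T and natural killer cells, was at 484, 348 and 389 FPKM in knockout libraries, against 0.15, 0.2 and 0.176 FPKM in wild-type libraries. In knockout it was second among the members only to Cxcl14, and in wild type it was close to 0 (change 8.43, SE 0.16, limma adjusted p = 1.56e-07). Its ligand, Tnfsf9, was at 67.1, 89.9 and 67.8 FPKM in knockout libraries, against 1.96, 3.08 and 1.94 FPKM in wild-type libraries, with a change of 4.52, SE 0.20, limma adjusted p = 1.08e-06. Tnfrsf9 lies on chromosome 4 (150914562 to 150946102) and overlaps Camta1. A second pair rose too. Tnfrsf12a, the receptor of the ligand TWEAK induced in wounds and growing tissue, was at 167, 204 and 125 FPKM in knockout libraries, against 5.19, 4.31 and 2.98 FPKM in wild-type libraries (change 5.0, SE 0.24, limma adjusted p = 1.44e-06). Its ligand Tnfsf12 was at 9.14, 16 and 8.13 FPKM in knockout libraries, against 3.01, 2.4 and 2.1 FPKM in wild-type libraries (change 1.74, SE 0.26, limma adjusted p = 0.000368). The gene of Tnfsf12 overlaps Tnfsfm13.

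Receptors that bind TNF ligands without passing on a death signal were also higher. Tnfrsf11b, the secreted decoy osteoprotegerin, was at 64.6, 187 and 89.5 FPKM in knockout libraries, against 0.741, 0.757 and 0.836 FPKM in wild-type libraries. Replicate 2 held the highest knockout value (change 5.87, SE 0.36, limma adjusted p = 4.08e-06). Because Tnfrsf11b passed the filter through the knockout libraries alone, its lack of overlap was set in advance. Tnfrsf23, in mouse a decoy for the death ligand TRAIL, was at 56, 113 and 56.5 FPKM in knockout libraries, against 0.252, 0.0852 and 0.142 FPKM in wild-type libraries (change 5.96, SE 0.28, limma adjusted p = 1.44e-06). Its neighbour and fellow decoy Tnfrsf22 was at 4.1, 7.29 and 3.78 FPKM in knockout libraries, against 2.28, 2.74 and 2.05 FPKM in wild-type libraries, a far smaller change of 0.81, SE 0.23, limma adjusted p = 0.0112. Tnfrsf26, the third of this group on chromosome 7 (143607659 to 143685872), was at 1.69 to 3.72 in knockout and 0.0963 to 0.128 in wild-type libraries (change 1.62). These 3 genes are similar in sequence, and reads may be divided among them. Tnfsf10, which encodes TRAIL, the ligand of both decoys, was low, at 1.13 to 1.32 in knockout and 0.0186 to 0.053 in wild-type libraries (change 1.1).

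Both receptors of TNF itself rose, unequally. Tnfrsf1b, mainly of immune and endothelial cells, was at 33.2, 46 and 27.2 FPKM in knockout libraries, against 0.983, 0.875 and 0.984 FPKM in wild-type libraries (change 4.2, SE 0.21, limma adjusted p = 1.66e-06). Tnfrsf1a, made by nearly all cells, was at 32.3, 44.7 and 42 FPKM in knockout libraries, against 24.3, 18.4 and 18.1 FPKM in wild-type libraries (change 0.93, SE 0.19, limma adjusted p = 0.00178). Tnfrsf21, a death domain receptor, was at 32.6, 56.5 and 47.5 FPKM in knockout libraries, against 10.7, 8.65 and 8.99 FPKM in wild-type libraries (change 2.13, SE 0.22). Tnfrsf18, of regulatory T cells and natural killer cells, was at 1.77 to 4.71 in knockout and 0.248 to 1.19 in wild-type libraries (change 1.34), and Tnfrsf11a, the receptor of RANK ligand, stayed at or under 1.23 FPKM and was not tested. Exceptions were Tnfrsf19 and Tnfrsf14. Tnfrsf19, a receptor of the embryonic nervous system and epithelia, was at 0.222, 0.145 and 0.368 FPKM in knockout libraries, against 21.8, 18.1 and 18.1 FPKM in wild-type libraries. It fell about as far as Cxcl12 on the log2(FPKM + 1) scale (change −4.03, SE 0.15, limma adjusted p = 7.51e-07). By the ratio of mean FPKM, knockout over wild type, Tnfrsf19 was at 0.0127, lower than Il17b at 0.0404 and Cxcl12 at 0.0614. Tnfrsf14, a receptor of lymphocytes and epithelia, was at 1.85, 1.99 and 1.61 FPKM in knockout libraries, against 7.25, 3.31 and 4.64 FPKM in wild-type libraries, and fell by less (change −1.06, SE 0.24, limma adjusted p = 0.00365); it did not pass with quantile normalization (−0.49, limma adjusted p = 0.105).

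**Figure D4:**
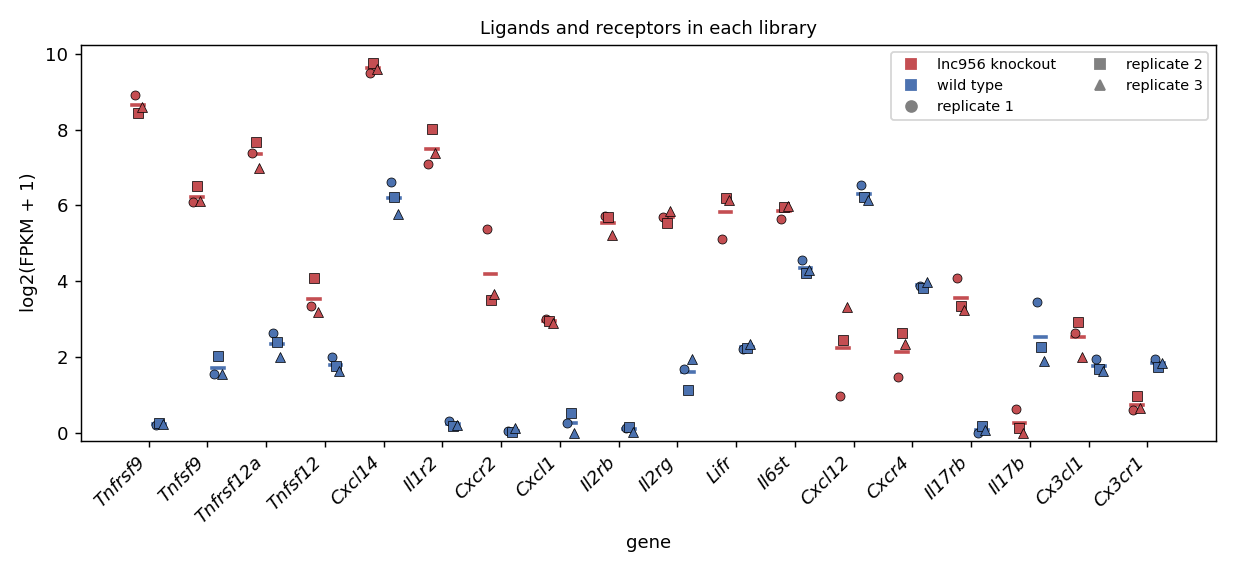
log2(FPKM + 1) of 18 ligands and receptors in each library, knockout left of wild type for each gene, with a symbol per replicate and a line at the mean. Tnfrsf9 and Tnfsf9 are both higher in knockout, Cxcl12 and Cxcr4 are both lower, and Il17rb with Il17b and Cx3cl1 with Cx3cr1 move in opposite directions.

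Across 22 textbook pairs of a ligand and a receptor that were both in the table, the mean of both was on the same side of wild type in 20 and on opposite sides in 2, Il17b with Il17rb and Cx3cl1 with Cx3cr1. Some genes stand in several pairs, and 64 of 73 members were higher, so this count describes the table and no test is given.

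Genes that carry the signals of these receptors were mostly higher in the same libraries. Of 14 tested genes of the JAK-STAT list 11 rose, 2 fell and 1 did not pass, with a median log2 change of 1.37, against 0.38 over all genes tested. Stat3, which carries the signals of Il6st, averaged 49.8 ± 8.31 FPKM in knockout libraries, against 11 ± 1.26 in wild type (SD, n = 3 each). Stat5b and the inhibitor Socs2 fell: Stat5b averaged 2.98 ± 0.786 FPKM in knockout libraries, against 9.07 ± 1.54 in wild type (SD, n = 3 each), and Socs2 3.33 ± 0.847 FPKM in knockout libraries, against 10.3 ± 0.721 in wild type (SD, n = 3 each). Of 16 tested NF-kB and TNF receptor signalling genes 15 rose and 1 fell (median 1.39). Traf1, an adaptor that binds Tnfrsf9 and Tnfrsf1b, averaged 7.04 ± 1.24 FPKM in knockout libraries, against 0.292 ± 0.00364 in wild type (SD, n = 3 each), and Tnip1, which restrains NF-kB, 33.3 ± 6.16 FPKM in knockout libraries, against 7.57 ± 1.01 in wild type (SD, n = 3 each). Traf4, an adaptor abundant in the embryonic nervous system, fell and averaged 6.32 ± 3.08 FPKM in knockout libraries, against 46.4 ± 1.24 in wild type (SD, n = 3 each). All 16 tested genes of interleukin-1 and Toll-like receptor signalling rose, of 21 in the table (median 1.63). The protease gene Casp1, which matures IL-1 beta, averaged 8.62 ± 1.97 FPKM in knockout libraries, against 0.259 ± 0.0329 in wild type (SD, n = 3 each), and Tlr4, the receptor of bacterial lipopolysaccharide, 10.7 ± 3.14 FPKM in knockout libraries, against 0.256 ± 0.0536 in wild type (SD, n = 3 each). Traf1, Casp1 and Tlr4 passed the filter through the knockout libraries alone, so their rise was set in advance. How many genes of each list passed through 1 genotype alone was not counted.

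Of 28 tested cytokine and receptor genes whose symbols lie outside the rule, 18 rose, 7 fell and 3 did not pass, with a median log2 change of 0.82. Spp1, a secreted phosphoprotein and cytokine, averaged 1345 ± 607 FPKM in knockout libraries, against 3.15 ± 0.484 in wild type (SD, n = 3 each), and the prolactin receptor gene Prlr 1.89 ± 0.183 FPKM in knockout libraries, against 0.0356 ± 0.00836 in wild type (SD, n = 3 each). Ngfr, a nerve growth factor receptor of the TNF receptor family, averaged 0.0965 ± 0.0396 FPKM in knockout libraries, against 20.6 ± 2.79 in wild type (SD, n = 3 each), and the ectodermal TNF ligand gene Eda 0.143 ± 0.0323 FPKM in knockout libraries, against 1.78 ± 0.0801 in wild type (SD, n = 3 each). Prlr passed the filter through knockout alone, and Ngfr and Eda through wild type alone, so their directions were also set in advance. No list was tested against the rest of the table, and these counts are read beside the 47.2% of all genes tested that rose and the 49.2% that fell. The table held 14 of 28 listed JAK-STAT, 18 of 33 NF-kB and TNF receptor and 21 of 28 interleukin-1 and Toll-like receptor genes. Of the listed cytokine genes with symbols outside the rule it held 33 of 63.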

How the data were processed

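The 6 libraries were analysed as deposited by the authors, 1 value per gene and library. Per the submitters' processing notes, TopHat2 2.0.8 and Cufflinks 2.1.1 were named, with mm9 and mm10 and no role for either. The deposited table names no unit, and its values are taken as FPKM calculated by the authors, since Cufflinks is the only quantifier named and the values are not whole. Depth in reads is not given, so no counting interval is given. The members, lists, tests and motifs were chosen with earlier results of these data known.

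FPKM + 1 was log2-transformed and tested in limma 3.58.1 under R 4.3.3 (trend and robust on), two-sided, knockout minus wild type, genotype as the only term, for the 6487 genes that reached 1 FPKM in 3 or more libraries (614 did not), with Benjamini-Hochberg adjustment over these genes and a threshold of 0.05. Exact tests of 3 against 3 cannot go below p = 0.1 and are not given. Members with a mean of at least 5 FPKM in 1 genotype get the value of every library; the others are given by range. From each signalling list the 2 genes of smallest p in each direction are named. The values of 1 member and 1 signalling gene are not reported here, although they enter the counts. From each marker list the 2 of highest mean are named. Alternatives were pseudocounts of 0.1 and 5, other filters, 2 rescalings, plain limma settings, a replicate block and each library left out. Gene positions are from GENCODE M21 on GRCm38, in which all 73 symbols were found, and cover whole genes. Besides the overlaps given above, Ccl2 overlaps Gm17268, Cxcl16 Zmynd15, Il2rg Gm20489 and Il10rb Gm21970. Simulated data held 6487 genes with 50 changed at each size. The share recovered there was 18% for a log2 change of 0.5, 58% for 1, 92% for 2 and 100% for 4, and 8 genes without a change passed. Most genes had no change there, while 96.4% of the genes tested in the deposited data passed. The adjusted p depends on that share, so these values are not the recovery of the fit above, which was not tested.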

Additional observations from a re-analysis of the deposited data

How the results depend on the processing

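No tested member changed direction under any alternative. Of the 62 members past the threshold, 58 stayed past it under each alternative in which they were tested, and the others (Cx3cl1, Il11ra1, Il17ra and Tnfrsf14) are described above. Requiring 5 FPKM in at least 3 libraries tested fewer genes and left 33 members higher and 4 lower in knockout. Leaving out 1 library gave 52 to 55 members higher and 8 lower. The median log2 change of all genes tested was 0.38 as deposited and that of the members 1.74; trimmed-mean rescaling gave 0.65 and 2.03, and quantile normalization −0.04 and 1.98. Pseudocounts of 0.1 and 5 gave 0.47 and 0.18 for all genes and 2.39 and 0.94 for the members, and the 5 FPKM filter 0.52 and 2.7. With the replicate number as a block, 55 members, now with Csf2rb (limma adjusted p = 0.0422), were higher and 8 lower, and 3038 and 3192 of all genes. Deviations of same-numbered libraries had correlations of −0.06, 0.08 and 0.11 across genes, so not every pair passed 0.1 and the libraries are taken to share only a number. Knockout replicates 2 and 3 correlated best with their own number, and knockout replicate 1 with wild-type replicate 3 (0.06). Selection of the table, unknown depth and 3 libraries per genotype limit all counts.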
